A study of Mus musculus with 6 samples.

Results

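Hoxa5, Hoxa7, Hoxa9, Hoxa10, Meis1 and Mecom were followed across every array as a small set of transcription factor genes of blood stem and progenitor cells. The members were all probe sets annotated to exactly 1 of these 6 gene symbols, which gave 13 probe sets among the 34945 with a single symbol, and 6 genes of the 18193 measured. Hoxa7 had 1 probe set, Hoxa5, Hoxa9 and Hoxa10 had 2 each, and Meis1 and Mecom had 3 each.

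RNA came from cultures of C57BL/6 mouse bone marrow, in 3 groups of 2 arrays. GM-MPP were multipotent progenitors by their label, grown with stem cell cytokines and the myeloid growth factor GM-CSF, and are called progenitors below. GM-DC were dendritic cells, which present antigen to T cells, derived from GM-MPP with GM-CSF alone. GM-TNFa-DC were derived from GM-MPP with GM-CSF and the inflammatory cytokine TNFa, so GM-CSF was common to all 3 groups. The labels do not state the doses, the days of culture, or whether the replicate arrays represent independent cultures or mice; the p-values therefore reflect the spread among these arrays alone, which could be technical. Values are log2 expression levels per probe set, where 1 unit is a 2-fold difference, and precision is limited by there being 2 arrays a group.

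Hox genes encode homeodomain proteins that bind short DNA motifs, and Hoxa9 is the member best known for expanding blood progenitors. MEIS1 is a homeodomain protein of the TALE class that binds DNA together with HOX and PBX proteins and raises their specificity. Mecom encodes the zinc finger proteins EVI1 and MDS1-EVI1, which are known for maintaining haematopoietic stem cells. The Hoxa genes and Meis1 are known to be active in early progenitors and to be shut down as myeloid cells mature, with KMT2A complexes holding Hoxa chromatin active and Polycomb complexes holding it silent.

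The array medians lay between 4.67 and 4.77. The first principal component, with 60.1% of the variance, separated GM-MPP from both dendritic cell groups. The second, with 25.3%, separated the arrays numbered 1 from those numbered 2 within the dendritic cell groups, so changes within each number are given beside the called members. Most dendritic cell markers went with that label: 9 of 12 were called higher and 1, Flt3, lower in each dendritic cell group against GM-MPP. In GM-MPP 6 of the 12 read no higher than most olfactory receptor probe sets. Those 10 calls fell to 1 without either GM-MPP array in each comparison, to 1 and 3 in GM-DC without GM-DC arrays 1 and 2, and to 3 in GM-TNFa-DC without GM-TNFa-DC array 1. Zbtb46 and Ciita had higher means in dendritic cells but were not called. On the dendritic cell arrays numbered 2, Zbtb46 read 4.55 in GM-DC and 4.92 in GM-TNFa-DC, and Ciita 4.44 and 4.53. Those values lay no higher than most olfactory receptor probe sets, while arrays numbered 1 read between 6.45 and 6.93. Itgax, which encodes the integrin CD11c, read 4.47 and 4.49 in GM-MPP, 11.52 and 10.75 in GM-DC, and 11.59 and 11 in GM-TNFa-DC. Cd34, a surface marker of blood progenitors, read 6.98 and 7.38 in GM-MPP, 3.16 and 3.59 in GM-DC, and 2.86 and 3.54 in GM-TNFa-DC. It belonged to 8 measured stem and progenitor markers, of which 6 had higher means in GM-DC than in GM-MPP and 5 in GM-TNFa-DC. Neutrophil genes were bright in GM-MPP, where S100a9 read 14.35 and 14.43 and Ngp 14.26 and 14.13. The summed linear level there was 108000 to 122000 for 14 neutrophil and promyelocyte markers, and 1060 to 1530 for the 8. The markers thus do not show how much of the GM-MPP RNA came from multipotent cells.

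Hoxa9 fell most among the 6 genes when progenitors became dendritic cells. The brighter probe set, 1455626_at, read 9.82 and 9.30 in GM-MPP, 5.55 and 5.32 in GM-DC, and 5.52 and 5.03 in GM-TNFa-DC. Both progenitor arrays stood far above all 4 dendritic cell arrays, while the dendritic cell groups overlapped. The change from GM-MPP to GM-DC was -4.12 ± 0.28 (log2, moderated standard error), a 17.4-fold lower level, with adjusted p = 0.00476 in limma's test over all genes. In GM-TNFa-DC it was -4.29 ± 0.28, a 19.5-fold lower level, with adjusted p = 0.00325. Hoxa9 held rank 36 from the bottom of 18193 genes in each of these comparisons, which share the GM-MPP arrays. Arrays numbered 1 gave -4.26 and -4.29 for GM-DC and GM-TNFa-DC, and arrays numbered 2 gave -3.98 and -4.28. The gene stayed called in every one of the 18 alternative settings for each comparison, although its change shrank to -2.48 and -2.54 when its probe sets were averaged. In the fit over all probe sets, 1455626_at lost its call without either GM-MPP array in GM-DC and without GM-MPP array 2 in GM-TNFa-DC.

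The second Hoxa9 probe set, 1421579_at, showed a smaller difference. It read 6.25 and 6.35 in GM-MPP, 5.42 and 5.52 in GM-DC, and 5.41 and 5.60 in GM-TNFa-DC. All dendritic cell arrays again lay below both progenitor arrays. The differences of -0.83 ± 0.19 and -0.80 ± 0.19 were not called, with adjusted p = 0.0854 and 0.0776 in the limma fit over 45037 probe sets. Probe sets of 1 gene share the same RNA and are not replicates, and what sequence each one targets was not examined.

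Hoxa7, the neighbour of Hoxa9 in the cluster and a partner of it in leukaemic transformation by KMT2A fusions, also read lower in dendritic cells. Its only probe set, 1449499_at, read 7.25 and 7.52 in GM-MPP, 6.39 and 6.04 in GM-DC, and 6.24 and 6.21 in GM-TNFa-DC. The progenitor arrays did not overlap with the others, and GM-DC spanned GM-TNFa-DC. Hoxa7 fell by 1.17 ± 0.22 in GM-DC (2.25-fold lower, limma adjusted p = 0.0469) and by 1.16 ± 0.22 in GM-TNFa-DC (2.23-fold lower, limma adjusted p = 0.0399). Arrays numbered 1 gave changes of -0.86 and -1.01, and arrays numbered 2 gave -1.48 and -1.31. These calls lie close to the threshold of 0.05. They were lost in 10 of 18 alternatives in each comparison, among them the fit over all probe sets (limma adjusted p = 0.0621 and 0.0514), a second quantile normalization (0.0637 and 0.0611) and the removal of any single array.

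Hoxa5, a Hoxa gene known from myeloid and erythroid differentiation, gave unlike pictures in its probe sets, with 1 called lower and the other not called. Probe set 1448926_at read 6.05 and 5.97 in GM-MPP, 4.76 and 4.91 in GM-DC, and 5.00 and 4.81 in GM-TNFa-DC. All 4 dendritic cell arrays were low and both progenitor arrays high. It fell by 1.17 ± 0.18 in GM-DC (2.26-fold lower, limma adjusted p = 0.0343 over all probe sets) and by 1.11 ± 0.18 in GM-TNFa-DC (2.16-fold lower, limma adjusted p = 0.0326). Within arrays numbered 1 its changes were -1.29 and -1.05, and within those numbered 2 they were -1.06 and -1.17. Its call was lost in GM-DC whichever of the 4 arrays compared was left out. In GM-TNFa-DC it was lost whichever of the 6 arrays was left out, and in a fit on only the 4 arrays compared. Probe set 1443803_x_at, whose suffix marks probes that can bind other transcripts, read 6.08 and 6.02 in GM-MPP, 6.17 and 6.02 in GM-DC, and 6.40 and 6.22 in GM-TNFa-DC. Its differences in the fit over genes, 0.05 ± 0.18 (95% interval -0.40 to 0.49) and 0.26 ± 0.18 (-0.19 to 0.71), were not called. Because 1443803_x_at had the higher mean it stood for Hoxa5 in the fit over genes; with such cross-binding probe sets left out, a setting added after seeing the data, Hoxa5 was called lower in each comparison (limma adjusted p = 0.0242 and 0.0225).

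Hoxa10, a posterior Hoxa gene that blocks terminal myeloid differentiation when overexpressed, was dim on every array. Probe set 1446408_at read 3.09 and 3.02 in GM-MPP, 2.96 and 2.91 in GM-DC, and 3.17 and 2.98 in GM-TNFa-DC. The GM-DC arrays were the lowest by a small margin. Probe set 1431475_a_at read between 2.29 and 2.70 over the 6 arrays, with all groups overlapping. As a rough guide to the level of unused genes, 44 olfactory receptor probe sets had a median of 3.35, with 90% of them between 2.68 and 4.95, although brightness differs between probe sets. For 56 probe sets of genes restricted to other organs the same range was wider, 2.31 to 6.39, with a median of 3.55. All arrays of Hoxa5 1448926_at, Hoxa9 1421579_at and Meis1 1450992_a_at, progenitors included, lay within that wider range. The dendritic cell arrays of Hoxa9 1455626_at, at 5.55 or less, also lay within it, and those of Hoxa7 reached no higher than its top, 6.39. The lower end of the Hoxa9 and Hoxa7 folds thus rests on such values. Hoxa10 was not called in any comparison, and the 95% interval for 1446408_at in GM-DC against GM-MPP was -0.38 to 0.14 around -0.12. A difference at this level was not detectable here, which does not show that Hoxa10 was absent or constant.

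**Figure D1:**
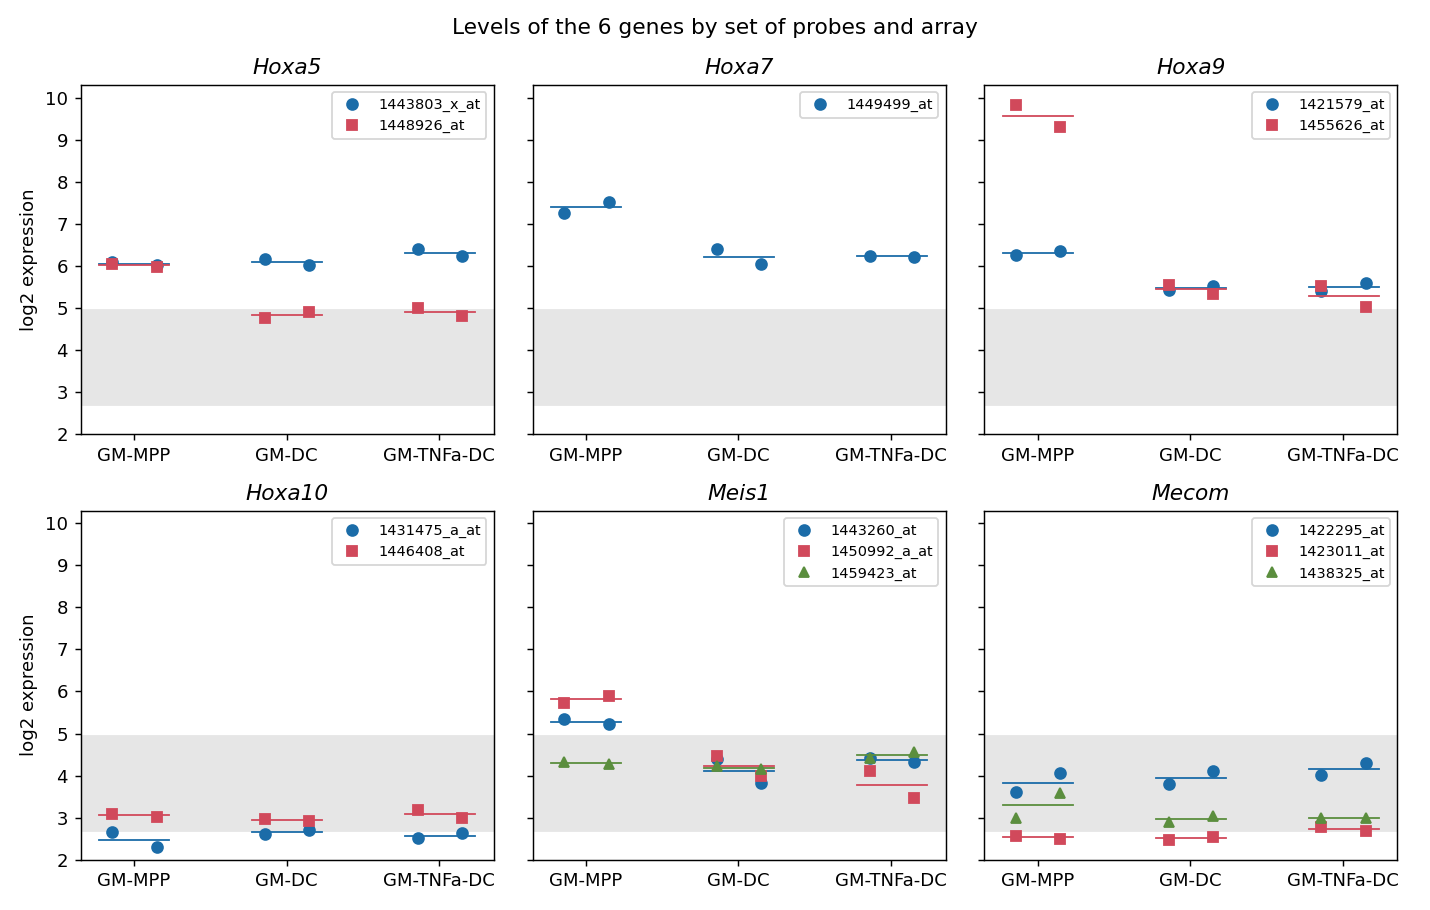
Log2 expression of each probe set of the 6 genes, with 1 panel per gene, the 3 groups on the x axis, 1 point per array (number 1 left, number 2 right) and a line at the mean of 2 arrays. The grey band spans the 5th to 95th percentile of 44 olfactory receptor probe sets, 2.68 to 4.95; Hoxa9 probe set 1455626_at drops from 9.82 and 9.30 in GM-MPP to 5.55 or less in the dendritic cell arrays, while every Hoxa10 and Mecom point lies in or below the band.

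Meis1, the TALE partner of HOXA9, was lower in dendritic cells by its brightest probe set. Probe set 1450992_a_at read 5.72 and 5.90 in GM-MPP, 4.46 and 3.98 in GM-DC, and 4.10 and 3.46 in GM-TNFa-DC. The progenitor arrays lay above all others, and the dendritic cell groups overlapped, with all 4 of their arrays inside the olfactory receptor range, so the folds below rest on values near background. Meis1 fell by 1.59 ± 0.27 in GM-DC (3-fold lower, limma adjusted p = 0.0396) and fell by 2.03 ± 0.27 in GM-TNFa-DC (4.07-fold lower, limma adjusted p = 0.0197). Arrays numbered 1 gave changes of -1.26 and -1.62, and arrays numbered 2 gave -1.91 and -2.43. With the 3 probe sets averaged the changes were -0.95 and -0.92. The call in GM-DC was lost without either GM-MPP array (limma adjusted p = 0.201 and 0.191) or either GM-DC array (0.105 and 0.140). That in GM-TNFa-DC was lost without either GM-MPP array (0.128 and 0.124).

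The other Meis1 probe sets differed from it in size. Probe set 1443260_at read 5.34 and 5.23 in GM-MPP, 4.40 and 3.83 in GM-DC, and 4.41 and 4.33 in GM-TNFa-DC. Its arrays did not overlap between progenitors and dendritic cells, but the differences of -1.17 ± 0.22 and -0.91 ± 0.22 missed the threshold (limma adjusted p = 0.0587 and 0.0848 over all probe sets). Probe set 1459423_at read between 4.15 and 4.55 on all arrays, with differences of -0.11 ± 0.14 and 0.18 ± 0.14. That probe set lay inside the olfactory receptor range throughout.

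Mecom, the stem cell factor of the group, was dim in progenitors and dendritic cells alike. Probe set 1422295_at read 3.60 and 4.05 in GM-MPP, 3.79 and 4.11 in GM-DC, and 4.02 and 4.30 in GM-TNFa-DC, and all groups overlapped. Its differences were 0.12 ± 0.21 in GM-DC (95% interval -0.41 to 0.66) and 0.33 ± 0.21 in GM-TNFa-DC (-0.20 to 0.87). Probe set 1423011_at read between 2.47 and 2.78, with the GM-TNFa-DC arrays highest at 2.78 and 2.69 (difference from GM-MPP 0.20 ± 0.09, limma adjusted p = 0.273), and probe set 1438325_at between 2.89 and 3.59, the highest value being that of GM-MPP array 2. None of the 3 was called in any comparison, and none left the olfactory receptor range upwards.

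By gene, 3 of the 6 were called lower in GM-DC against GM-MPP, where 4.5% of all genes were called, 2.63% lower and 1.87% higher, and no member was called higher. The same 3, Hoxa7, Hoxa9 and Meis1, were called lower in GM-TNFa-DC against GM-MPP, where 7.03% of all genes were called, 4.26% lower and 2.77% higher. By probe set, 3 of 13 were called lower in GM-DC, where 2.78% of all probe sets were called, 1.63% lower and 1.15% higher. In GM-TNFa-DC 3 of 13 were called lower, where 4.44% of all probe sets were called, 2.78% lower and 1.67% higher. Over the alternatives these counts ran from 0 to 5, with 0 in GM-DC without either GM-MPP array and 0 in GM-TNFa-DC without GM-MPP array 2; without GM-MPP array 1 the latter was 1, and without either GM-DC array the former was 1. With all arrays, the called probe sets belonged to Hoxa5, Hoxa9 and Meis1. The comparisons share the GM-MPP arrays, so the second count is not independent of the first. The count of 3 genes fell to 1, Hoxa9, without either GM-MPP array in each comparison, and without either GM-DC array in GM-DC against GM-MPP. RNA was measured from whole cultures, in which fewer cells of a type and less RNA per cell cannot be told apart.

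**Figure D2:**
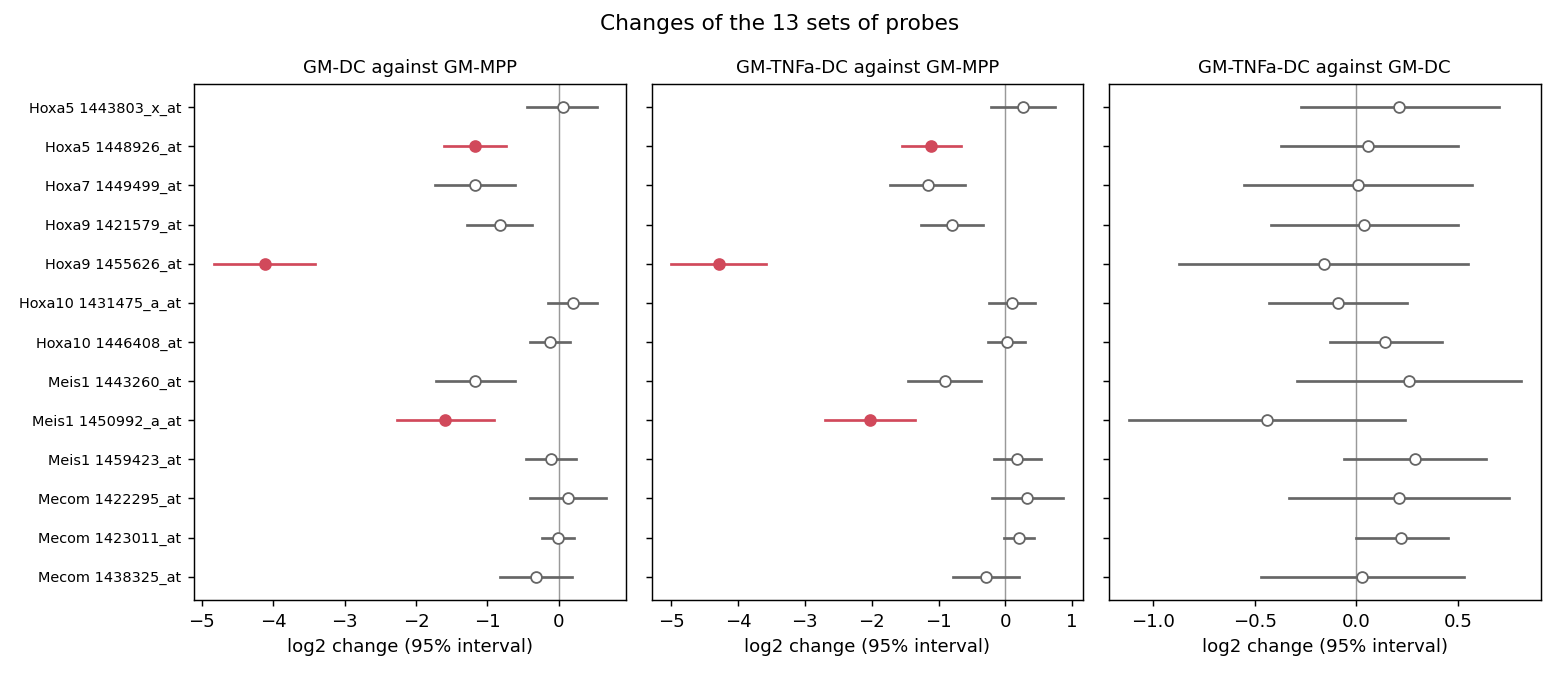
Log2 change of each of the 13 probe sets in the 3 comparisons (x axis, with 95% intervals from limma); filled red points are called lower at an adjusted p under 0.05 over all probe sets. The called points are Hoxa5 1448926_at (-1.17 and -1.11), Hoxa9 1455626_at (-4.12 and -4.29) and Meis1 1450992_a_at (-1.59 and -2.03), and the right panel, which has a narrower axis, holds none.

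Adding TNFa to GM-CSF gave no called difference in the 6 genes. In GM-TNFa-DC against GM-DC the change of Hoxa9 was -0.16 ± 0.28 (95% interval -0.87 to 0.54), that of Hoxa7 was 0.01 ± 0.22 (-0.53 to 0.55) and that of Meis1 was -0.44 ± 0.27 (-1.12 to 0.24). The arrays of these 3 genes overlapped between the groups. The intervals of Hoxa5 1448926_at (-0.37 to 0.50) and Mecom 1422295_at (-0.33 to 0.75) also spanned 0. The test called 0% of all genes here: at an unadjusted p under 0.05, 140 genes were lower and 270 higher, and the lowest adjusted p was 1. A missed threshold does not show that the groups had equal levels. For the members called, the order of the levels was thus GM-MPP first, followed by GM-DC and GM-TNFa-DC, which did not differ beyond their spread.

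In the Hoxa cluster the measured genes run in RefSeq order from Hoxa2 through Hoxa5, Hoxa7, Hoxa9 and Hoxa10 to Hoxa13. The Hoxa probe sets whose dendritic cell arrays lay below both progenitor arrays by over 0.5 log2 units belonged to Hoxa5, Hoxa7 and Hoxa9. The 9 probe sets of Hoxa2, Hoxa3, Hoxa4, Hoxa11 and Hoxa13 had values between 2.21 and 6.02, and none spanned more than 0.95 over the 6 arrays. Of the 13 other genes listed for the cluster and its borders, 7 were measured and none was called, with median changes of 0.01 in GM-DC and 0.13 in GM-TNFa-DC, beside 0.02 and 0.05 over all genes. In the Hoxb, Hoxc and Hoxd clusters, 24 of 28 genes were measured, none was called, and the median change was 0.07 in each comparison. All but Hoxb3, Hoxb4, Hoxc6 and Hoxc9 read below 4.95, the top of the olfactory receptor range, on every array. The lack of calls at such levels does not show that these genes stayed constant. The changes of single genes in the Hoxb, Hoxc and Hoxd clusters ran from -0.21 to 0.42 in GM-DC and from -0.19 to 0.50 in GM-TNFa-DC.

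**Figure D3:**
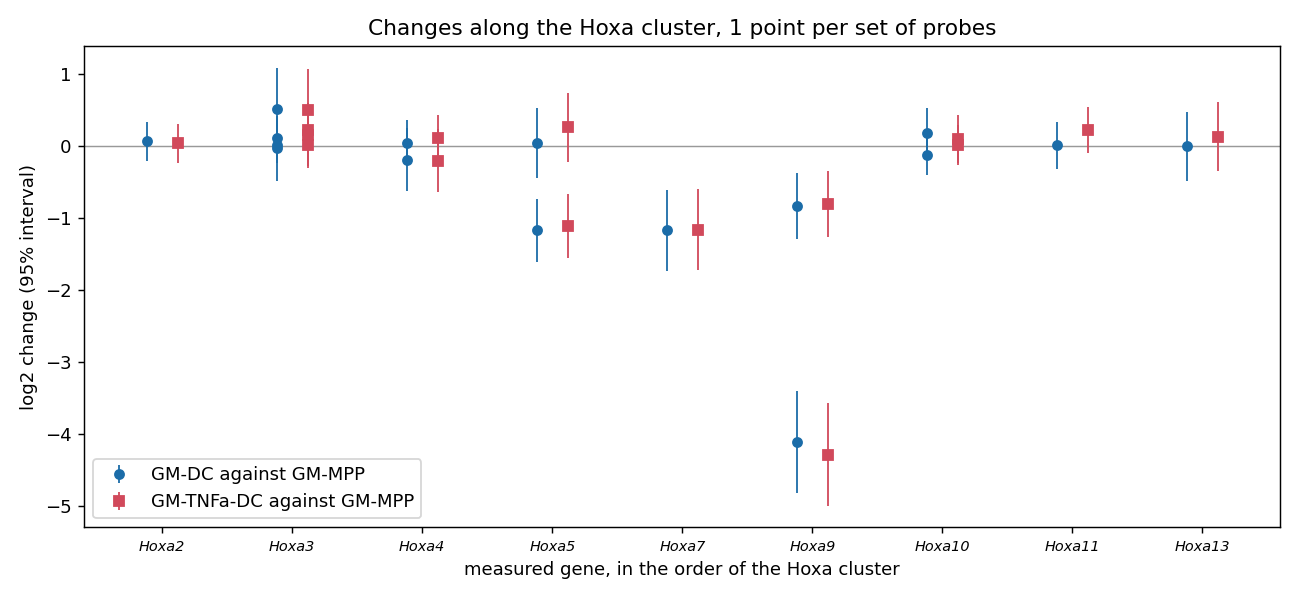
Log2 change against GM-MPP with 95% intervals (y axis) for every probe set of the measured Hoxa genes in chromosomal order (x axis), with GM-DC as blue circles and GM-TNFa-DC as red squares. Hoxa9 holds the lowest points (-4.12 and -4.29), and Hoxa5 1448926_at, Hoxa7 and the second Hoxa9 probe set lie between -1.17 and -0.80; the other Hoxa5 probe set lies at 0.05 and 0.26.

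Because these 4 Hoxa genes lie in the same cluster and differed in their values, the 250 bases before their RefSeq starts are shown to let their promoters be compared. The sequences are from RefSeq, assembly GRCm38.p6, minus strand of chromosome 6, at chr6:52204588-52204837 for Hoxa5, chr6:52218574-52218823 for Hoxa7, chr6:52227371-52227620 for Hoxa9 and chr6:52240855-52241104 for Hoxa10, written 5′ to 3′ toward the gene. Where a gene had several starts, the one farthest upstream was used. Capitals mark matches to TTTAT, the core letters favoured by posterior HOX proteins.
Hoxa5: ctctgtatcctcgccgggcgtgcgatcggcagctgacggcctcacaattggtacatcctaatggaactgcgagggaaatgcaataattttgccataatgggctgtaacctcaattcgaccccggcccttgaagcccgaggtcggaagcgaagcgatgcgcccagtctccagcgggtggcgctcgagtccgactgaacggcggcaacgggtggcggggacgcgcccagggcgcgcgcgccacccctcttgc
Hoxa7: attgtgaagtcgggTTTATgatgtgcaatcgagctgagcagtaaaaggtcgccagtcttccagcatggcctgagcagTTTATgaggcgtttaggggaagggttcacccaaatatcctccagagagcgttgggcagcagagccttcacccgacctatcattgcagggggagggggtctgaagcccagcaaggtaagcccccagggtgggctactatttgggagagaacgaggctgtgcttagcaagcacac
Hoxa9: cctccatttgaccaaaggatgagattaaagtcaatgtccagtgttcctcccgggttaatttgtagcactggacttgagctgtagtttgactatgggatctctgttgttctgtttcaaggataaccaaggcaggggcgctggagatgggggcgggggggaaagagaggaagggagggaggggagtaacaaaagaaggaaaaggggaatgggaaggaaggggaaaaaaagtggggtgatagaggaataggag
Hoxa10: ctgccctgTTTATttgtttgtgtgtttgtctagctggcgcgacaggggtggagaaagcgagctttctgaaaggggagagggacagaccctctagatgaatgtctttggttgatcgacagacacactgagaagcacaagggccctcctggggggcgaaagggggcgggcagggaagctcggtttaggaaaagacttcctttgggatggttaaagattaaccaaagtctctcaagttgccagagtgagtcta

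TTTAT matched 2 times before Hoxa7, beginning 236 and 173 bases before the start, and 1 time before Hoxa10, beginning 242 bases before the start. It was not found in the Hoxa5 and Hoxa9 windows. On either strand, 37.3% of 32817 RefSeq windows of the same length held TTTAT, so a match is common. TGACAG, the MEIS core, and TGATTNAT, a joint PBX and HOX site, were found in none of the 4 windows on either strand; 15.9% and 2.83% of all windows held them. The motifs do not overlap in these windows, and a match describes letters, not binding. The windows differed in CpG content: that of Hoxa5 held 28 CpG and 63.6% G or C, that of Hoxa7 7 and 54.8%, that of Hoxa9 3 and 49.6%, and that of Hoxa10 7 and 51.6%. The median over all windows was 6 CpG and 52.4% G or C.

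Among the partners of these proteins, the TALE cofactors showed no shared direction. Of 11 listed, 10 were measured. None was called in GM-DC and 2 were called higher in GM-TNFa-DC, with medians of 0.03 and 0.24. Tgif1, a TALE repressor, read 7.29 and 7.48 in GM-MPP, 8.39 and 8.64 in GM-DC, and 8.73 and 9.53 in GM-TNFa-DC, and rose by 1.74 ± 0.32 in the last (limma adjusted p = 0.0376). Meis2, a paralogue of Meis1, rose by 0.54 ± 0.10 in GM-TNFa-DC (limma adjusted p = 0.0417), from 3.12 and 3.03 to 3.57 and 3.66, values inside the olfactory receptor range. The call of Meis2 was lost under both other scalings. Without 1 array the 2 calls fell to between 0 and 1. Pbx3, a HOX cofactor, changed by 0.00 ± 0.26 and 0.40 ± 0.26, and Pknox1, a relative of Meis1, by -0.70 ± 0.37 and -0.73 ± 0.37, none of them called.

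Of the corepressors and the paralogue of Mecom, 7 of 8 were measured and 1 was called lower in each comparison, with medians of -0.29 and -0.27. Hdac2, a histone deacetylase, fell by 1.15 ± 0.19 in GM-DC (limma adjusted p = 0.0361) and by 1.13 ± 0.19 in GM-TNFa-DC (limma adjusted p = 0.0308). It read 8.99 and 8.98 in GM-MPP and between 7.79 and 7.93 in the dendritic cell arrays. Of its 3 probe sets 2 were lower and 1 higher, and the call was lost whichever single array was left out. Prdm16, the paralogue of Mecom, changed by 0.08 ± 0.20 and 0.07 ± 0.20 and was not called.

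Among regulators of Hoxa chromatin, no gene was called between GM-TNFa-DC and GM-DC, where 0% of all genes were called, so this holds for any list. Of the 15 genes of the KMT2A complex and the DOT1L group, all measured, none was called in GM-DC, and 3 were called lower and 1 higher in GM-TNFa-DC, with medians of -0.39 and -0.38. Psip1, the chromatin tether of the complex, read 8.08 and 7.61 in GM-MPP, 6.06 and 6.63 in GM-DC, and 6.13 and 5.95 in GM-TNFa-DC, where it fell by 1.81 ± 0.29 (limma adjusted p = 0.0269); in GM-DC the change was -1.51 ± 0.29 (0.0505), which was called under median centring. Dpy30 fell by 1.62 ± 0.28 (limma adjusted p = 0.0343) and Wdr5 by 1.24 ± 0.21 (0.0316), both core subunits shared by several methyltransferase complexes. Mllt6, a DOT1L partner, rose by 2.49 ± 0.50 (limma adjusted p = 0.0468), a call lost under median centring. These calls depend on the fit. Over all probe sets, Psip1 and Wdr5 each had 1 probe set called lower in GM-DC, and none of the 3 of Mllt6 was called in GM-TNFa-DC. Without 1 array the count of 4 fell to between 0 and 1. Kmt2a itself changed by 0.13 ± 0.28 and 0.29 ± 0.28, its partner Men1 by -0.57 ± 0.34 and -0.50 ± 0.34, and Dot1l by -0.39 ± 0.20 and -0.22 ± 0.20, none of them called.

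Of 23 Polycomb genes, 22 were measured. None was called in GM-DC and 1 was called lower in GM-TNFa-DC, with medians of -0.34 and -0.09; over all genes, 4.26% were called lower in that comparison. That gene, Rbbp7, encodes a histone-binding subunit and fell by 1.16 ± 0.21 (limma adjusted p = 0.0377), a call lost whichever single array was left out.

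Genes reported elsewhere as targets of HOXA9 and MEIS1 were lower in part. Of 20, all measured, 5 were called lower in GM-DC and 6 in GM-TNFa-DC, beside 2.63% and 4.26% of all genes, and none higher. Their mean changes were nonetheless split, with 10 lower and 10 higher in GM-DC and 13 lower and 7 higher in GM-TNFa-DC, and medians of -0.18 and -0.61. Myb, a transcription factor of progenitors, read 10.89 and 11.51 in GM-MPP, 5.5 and 4.07 in GM-DC, and 4.67 and 4.11 in GM-TNFa-DC. It fell by 6.42 ± 0.52 in GM-DC and fell by 6.81 ± 0.52 in GM-TNFa-DC (limma adjusted p = 0.00616 and 0.00507). Cd34, read above, fell by 3.80 ± 0.29 and fell by 3.98 ± 0.29 (limma adjusted p = 0.00541 and 0.00462). Gfi1, a repressor of granulocyte progenitors, fell by 5.03 ± 0.63 and fell by 4.68 ± 0.63 (limma adjusted p = 0.0197 and 0.0196). Trib2, which encodes a pseudokinase, fell by 1.43 ± 0.15 in GM-DC (limma adjusted p = 0.0123), while Flt3, a cytokine receptor of progenitors, fell by 1.98 ± 0.36 (0.0443) there. The calls of Flt3 were lost under a second quantile normalization and whichever single array was left out.

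Most other reported targets were not called. Kit, the stem cell factor receptor, read 7.09 and 7.22 in GM-MPP, 9 and 5.65 in GM-DC, and 8.66 and 5.43 in GM-TNFa-DC, high on the dendritic cell arrays numbered 1 and low on those numbered 2. Sox4 read 7.51 and 8.35 in GM-MPP, 9.25 and 8.50 in GM-DC, and 9.57 and 8.67 in GM-TNFa-DC. Neither was called. The counts of 5 and 6 fell to 0 without GM-MPP array 2, and without GM-MPP array 1 to 0 in GM-DC and 1 in GM-TNFa-DC. They also fell to 2 without GM-DC array 1 in the first comparison, and to 2 and 3 without GM-TNFa-DC array 1 and array 2 in the second.

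Genes reported as targets of EVI1 all had lower means in dendritic cells. Mecom itself was dim and not called, and any part of EVI1 in these changes was not tested. Of 9, 7 were measured. In GM-DC 2 were called lower and in GM-TNFa-DC 4, with medians of -1.42 and -1.58. Over all genes, 2.63% and 4.26% were called lower. Angpt1, a ligand that supports stem cell quiescence, read 5.24 and 5.70 in GM-MPP, 3.27 and 3.14 in GM-DC, and 3.22 and 2.95 in GM-TNFa-DC. It fell by 2.27 ± 0.20 in GM-DC and fell by 2.39 ± 0.20 in GM-TNFa-DC (limma adjusted p = 0.00726 and 0.00588). Itga6, an integrin of stem and progenitor cells, read 9.49 and 9.84 in GM-MPP, 7.91 and 7.87 in GM-DC, and 7.51 and 7.63 in GM-TNFa-DC. It fell by 1.78 ± 0.22 in GM-DC and fell by 2.10 ± 0.22 in GM-TNFa-DC (limma adjusted p = 0.0187 and 0.0104). Gata2, a stem cell transcription factor, fell by 1.28 ± 0.22 in GM-TNFa-DC (limma adjusted p = 0.0308) and Adgrg1, an adhesion receptor of stem cells, by 1.58 ± 0.30 (0.0405). The count of 2 in GM-DC fell to 0 without GM-MPP array 2 and to 1 without GM-MPP array 1 or either GM-DC array. The count of 4 in GM-TNFa-DC fell to 1 without either GM-MPP array or GM-TNFa-DC array 1, and to 2 without GM-DC array 2 or GM-TNFa-DC array 2.

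Of 17 further transcription factors of blood stem cells, 15 were measured. None was called in GM-DC, and Lyl1 and Gata2 were called lower in GM-TNFa-DC, with medians of -0.45 and -0.38. Lyl1, a basic helix-loop-helix factor, read 9.74 and 9.93 in GM-MPP, 7.73 and 7.92 in GM-DC, and 6.40 and 7.48 in GM-TNFa-DC, where it fell by 2.89 ± 0.38 (limma adjusted p = 0.0185). In GM-DC its change of -2 ± 0.38 missed the threshold (0.0501). With each of the 6 arrays left out in turn, Lyl1 kept its call 4 times and Gata2 1 time, and both were lost without either GM-MPP array. Under median centring Lyl1 was called in GM-DC too.

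**Figure D4:**
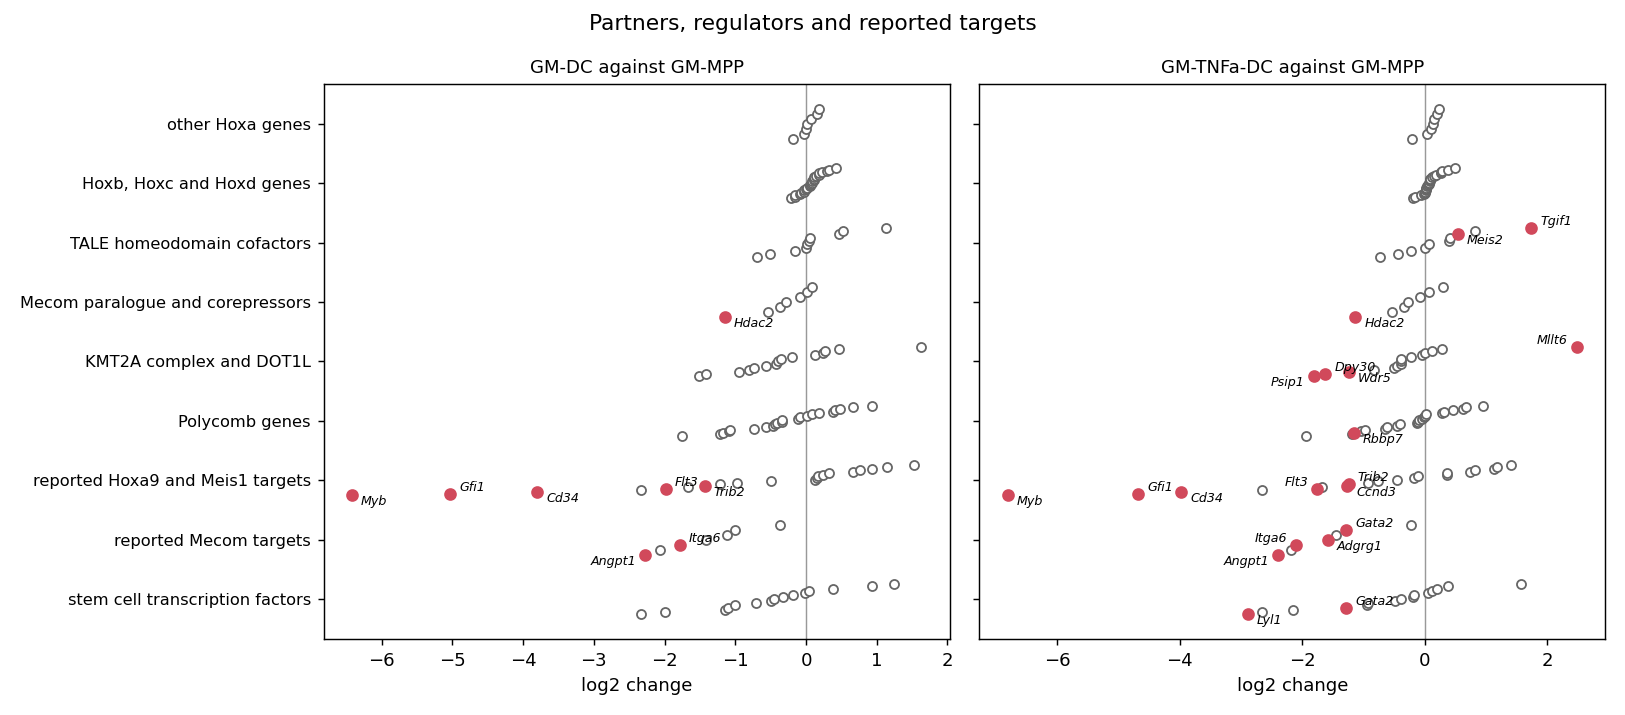
Log2 change of each measured gene of 9 lists (rows) in GM-DC (left) and GM-TNFa-DC (right) against GM-MPP, with 1 point per gene; filled red points with names are called at an adjusted p under 0.05 over 18193 genes. Points are spread vertically within a row for legibility; the Hox lists cluster around 0, while reported HOXA9 and MEIS1 targets reach from -6.42 to 1.52 on the left.

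The summed levels of neutrophil and of mast cell markers were lower in dendritic cells, as the called members were, while that of dendritic cell markers was higher. The summed linear level of 14 neutrophil and promyelocyte markers was 108000 to 122000 in GM-MPP, 17300 to 20900 in GM-DC and 5860 to 19100 in GM-TNFa-DC, and 7 and 9 of the 14 were called lower. Without GM-MPP array 1 these counts were 2 and 4, without GM-MPP array 2 they were 2 and 3, and without GM-TNFa-DC array 1 the second was 5. Mpo, the myeloperoxidase of promyelocytes, read 11.84 and 13.05 in GM-MPP and between 3.43 and 4.97 in the dendritic cell arrays. The 12 dendritic cell markers summed to 820 to 1120 in GM-MPP, 14200 to 48800 in GM-DC and 17500 to 62800 in GM-TNFa-DC. The 11 mast cell and basophil markers summed to 2300 to 2330, 427 to 1110 and 473 to 837, with 2 and 4 called lower, and none without either GM-MPP array; without GM-DC array 1 and array 2 the first was 1 and 0, and without GM-TNFa-DC array 1 the second was 2. Of the 11 mast cell and basophil markers, 7 had lower means and 4 higher in each comparison, with medians of -0.23 and -0.37. The brightest in GM-MPP, Cpa3, read 10.04 and 9.73 there and between 6.42 and 7.91 in the dendritic cell arrays. Of the 11, 4 in GM-MPP and 5 in each dendritic cell group read no higher than most olfactory receptor probe sets. The part of these marker shifts in the fall of the Hoxa genes and Meis1 was not tested.

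The other marker lists gave mixed calls. The 8 measured stem and progenitor markers summed to 1060 to 1530 in GM-MPP, 2900 to 3250 in GM-DC and 3290 to 4780 in GM-TNFa-DC, with Cd34 and Flt3 called lower in each comparison and Procr higher in GM-TNFa-DC. Procr, the protein C receptor, went from 3.67 and 3.29 in GM-MPP to 7.98 and 11.11 in GM-DC and 9.30 and 11.88 in GM-TNFa-DC. Cd48 read 8.33 and 8.32, 10.38 and 8.85, and 10.28 and 8.48 in the same groups. Procr and Cd48 carried much of the sums in dendritic cells, and the median change of the 8 markers was 0.55 in GM-DC and 0.53 in GM-TNFa-DC. The 14 erythroid and megakaryocyte markers summed to 2860 to 5260, 7520 to 14500 and 6380 to 14200, with Itga2b called lower and Cd9 higher. The brightest genes set such sums: Cd9 read 10 and 9.83 in GM-MPP and between 12.29 and 12.60 in the dendritic cell arrays, and Pf4 read 12.79 and 12.81 on the dendritic cell arrays numbered 2. In GM-DC 9 of the 14 had lower means, with a median change of -0.25, and in GM-TNFa-DC 7 had, with a median of -0.16. The 11 monocyte and macrophage markers summed to 9540 to 18300, 30000 to 37600 and 25400 to 41500, and 1 was called higher in each comparison. The 10 lymphoid markers summed to 235 to 280, 2970 to 4030 and 3380 to 4610, with Cd79b called lower and Il7r higher. Il7r, the interleukin-7 receptor, read 6.21 and 6.03 in GM-MPP and between 11.45 and 12.11 in the dendritic cell arrays; the median change of the list was 0.18 and 0.19, and 8 of the 10 were dim in each dendritic cell group. Of 16 stromal and endothelial markers none was called, and their sums were 600 to 735, 614 to 834 and 563 to 840. The endothelial genes Cdh5 and Tek read no higher than 4.07 and 2.63 on any array. Others were brighter: Kdr read 5.05 and 4.97 in GM-MPP, 6.29 and 7.5 in GM-DC, and 6.09 and 7.43 in GM-TNFa-DC. Pecam1 read between 4.47 and 6.71 over the 6 arrays.

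Genes with array profiles most like those of the members were taken by the smallest root mean square difference between mean-centred log2 values over the 6 arrays, for members spanning at least 1 log2 unit. For Hoxa9, which spanned 4.79, these were Chdh, a choline dehydrogenase, at 0.197, Rnf125, a ubiquitin ligase, at 0.257, and Ada, adenosine deaminase, at 0.262. Chdh read 8.69 and 8.54 in GM-MPP, 4.77 and 4.50 in GM-DC, and 4.40 and 4.45 in GM-TNFa-DC. For Hoxa7, which spanned 1.48, they were Mei4 at 0.075, Hsd17b1 at 0.085 and Grwd1 at 0.087, and Mei4 read 3.43 or less on all arrays. For Meis1, which spanned 2.43, they were Map3k9 at 0.075, Bzw2 at 0.111 and B3galnt2 at 0.142. Pearson's r with the member was between 0.989 and 0.997 over 6 arrays for all 9 genes, as a description of genes chosen for likeness among 18193. Hoxa5, Hoxa10 and Mecom spanned 0.39, 0.27 and 0.70 by the probe set that stood for them, so no gene was named for them.

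**Figure D5:**
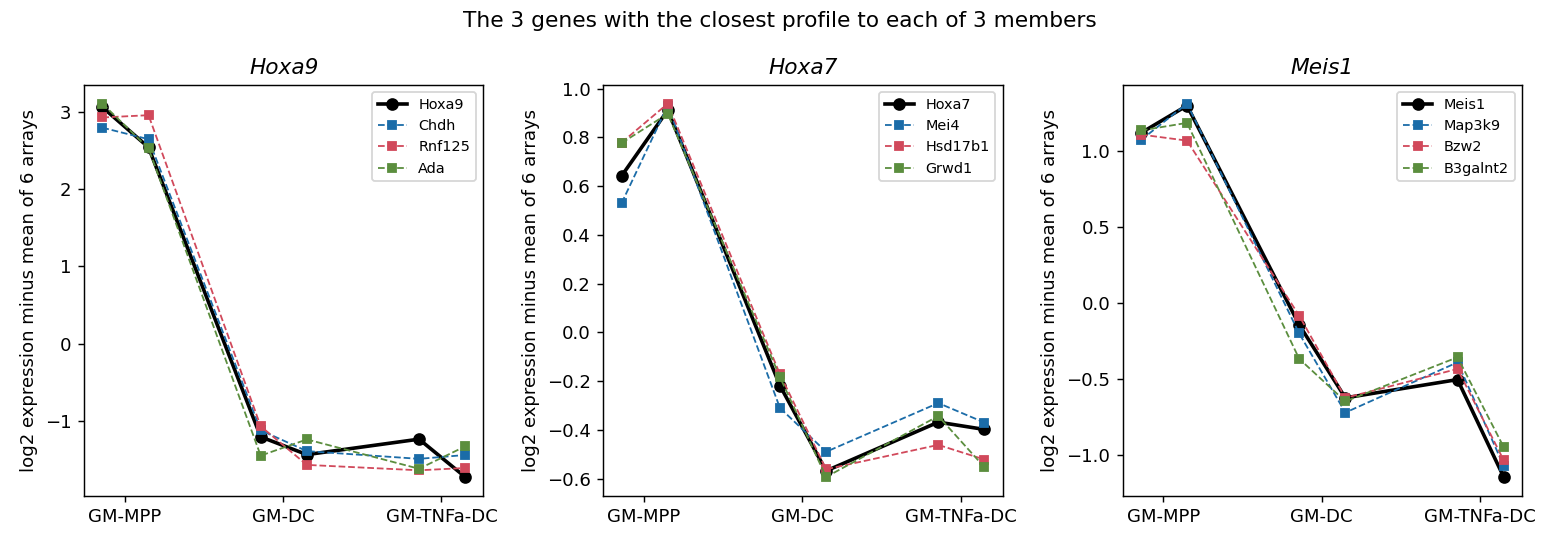
Log2 expression minus the mean of 6 arrays (y axis) for Hoxa9, Hoxa7 and Meis1 (black) and the 3 genes with the most similar profile to each (coloured), by group with 1 point per array; lines only guide the eye and each panel has its own scale. Chdh follows Hoxa9 with a root mean square difference of 0.197, Mei4 follows Hoxa7 with 0.075 and Map3k9 follows Meis1 with 0.075.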

How the data were processed

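Gene expression was measured on 6 Affymetrix mouse arrays. Per the submitters' processing notes the deposited values were made with RMA, and per the labels with Bioconductor; their versions, the probe set definitions and the arrays normalized as a set remain not given in the sources used here. Deposited values were taken as log2 expression from their range of 1.89 to 14.43. Of 45101 probe sets, 64 were controls, 34945 had 1 symbol in the platform annotation and 932 had several. The brightest single-symbol probe set, by its mean over 6 arrays, stood for a gene. The test was limma 3.58.1, run in R 4.3.3 with lmFit, an eBayes trend, 3 groups and no covariate, with Benjamini-Hochberg adjustment over 18193 genes, or over 45037 probe sets where stated; a feature was called at adjusted p under 0.05. Errors after ± are moderated standard errors. The fit was tested on simulated data. Members, lists and motifs were chosen with earlier results of these data known. Named were the 6 members, up to 4 called genes per list with the largest change, 8 known partners, and the 3 nearest profiles; Kit, Sox4, Trib2, Itgax, Mpo and the other markers named were chosen after their values were seen. Alternatives were 2 scalings, a filter on dim genes, the mean of probe sets, all probe sets, other priors, fewer arrays, a block on the array number, leaving out any 1 array and a 2-fold minimum. Python 3.11.15 and matplotlib 3.10.9 prepared the tables and plots.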

Additional observations from a re-analysis of the deposited data

How the results depend on the processing

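Hoxa9 kept its call in all 18 alternatives in GM-DC against GM-MPP (limma adjusted p from 0.00381 to 0.0453) and in GM-TNFa-DC against GM-MPP (0.00275 to 0.0422); by probe set its call was lost in GM-DC without either GM-MPP array and in GM-TNFa-DC without GM-MPP array 2. Hoxa7 lost its call in 10 of 18 alternatives in each comparison, and Meis1 in 5 and 3 of 17; the dim gene filter left Meis1, Hoxa10 and Mecom without a value. With each array left out in turn, 1 to 2 of the 6 genes were called in each comparison, in place of 3; a group reduced to 1 array borrowed its spread from the rest. Over all alternatives the count ran from 1 to 4. Hoxa5 turned from 0.05 to -1.17 in GM-DC and from 0.26 to -1.11 in GM-TNFa-DC when cross-binding probe sets were left out, a setting chosen after seeing the data, because another probe set then stood for the gene. No member was called in GM-TNFa-DC against GM-DC under any of the 18 alternatives, but neither was any other gene, so this holds for any list.

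The replicate numbers gave 2 pairs per comparison and nothing in the labels ties equal numbers together. Differences between array 1 and array 2 were correlated over the 45037 probe sets that were not controls. The correlation was 0.113 for GM-MPP with GM-DC, 0.065 for GM-MPP with GM-TNFa-DC and 0.713 for GM-DC with GM-TNFa-DC. With the number as a replicate block on 6 arrays, 3 of the 6 genes were called in each comparison against GM-MPP, as without it, and 1476 and 2060 of all genes in place of 819 and 1279. With the replicate block on only the 4 arrays compared, which leaves 1 residual degree of freedom, 1 of the 6 was called, Hoxa9. All genes called fell to 50 in GM-DC against GM-MPP and 91 in GM-TNFa-DC against GM-MPP without GM-MPP array 2, and rose to 1251 and 2001 features with all probe sets tested. Low signal limits Hoxa10 and Mecom, whose values lay in or below the range of olfactory receptor probe sets.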
